A study of Mus musculus with 117 samples.

Results

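The S100 genes encode small calcium-binding proteins, and 10 of them were followed here among the 27179 genes of the count tables. They are S100a1, S100a4, S100a6, S100a8, S100a9, S100a10, S100a11, S100a13, S100a16 and S100b, taken as a list of names in every library. The list was chosen with earlier results of these data known. The tables hold 8 further S100 genes, and 6 of them are taken up at the end as related genes.

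S100 proteins carry EF-hand motifs, and most of them change shape when calcium binds and work as dimers. Inside cells they bind targets such as annexins and cytoskeletal proteins, and several are also released and bind receptors on other cells. S100b is a classical marker of mature astrocytes, S100a4, S100a6, S100a10 and S100a11 are widely used as genes of reactive or motile cells, and S100a8 and S100a9, which pair to form calprotectin, are abundant in neutrophils.

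The study followed astrocytes of the mouse spinal cord after a crush spinal cord injury (SCI) at the tenth thoracic segment. In RiboTag mice, a ribosomal protein carries a hemagglutinin tag in cells with Cre recombinase, and the ribosomes of those cells can be pulled out of homogenized tissue together with their RNA. RNA from the pulldown gave an astrocyte library, and RNA left in solution from the same mouse gave a flow-through library, taken by the study as RNA of the cells without the tag. There were 117 libraries, 70 from the pulldown and 47 from the flow-through.

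The time course used Aldh1l1-CreERT2-RiboTag mice, in which the Aldh1l1 promoter drives a tamoxifen-regulated Cre in astrocytes of the adult. These were C57BL/6 young adult females, uninjured (n = 4) or at 2 d (n = 5), 5, 14, 28, 42 and 70 d (n = 4 each) after SCI, with a flow-through library of each mouse. Males of the same line were taken at 5 d and 14 d after SCI (n = 4 each). A second line, mGfap-Cre-RiboTag (mGfap), expresses Cre from a mouse Gfap promoter from early in life, so that other cells of the same lineage can carry the tag. Its uninjured mice were taken at postnatal days (P) 0 (n = 4), 3 (n = 3), 7 (n = 3), 14 (n = 5), 21 (n = 4), 35 (n = 4) and 63 (n = 5, 3 of them labelled male and 2 female), and 5 females were taken at 14 d after SCI. Flow-through libraries of this line came from P63 and from 14 d after SCI. All mice shared the RiboTag allele, and no mouse without Cre was analysed here. Tissue of injured mice was a small block of the lesion and its border, cut so as to leave out spared neural tissue, and matching regions were taken from uninjured mice.

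Libraries held 67253656 to 128400518 counts on genes for the pulldown and 40710428 to 136008399 for the flow-through. Levels are CPM (counts scaled to library size) after 1 TMM scaling over all 117 libraries. Levels of different genes are compared per length, as FPKM, except where S100a8 and S100a9 are set beside neutrophil markers. Fold changes are on the log2 scale, with SE, from quasi-likelihood F tests in edgeR. P-values were adjusted over all genes tested (Benjamini-Hochberg), with a threshold of 0.01. "Rose" and "fell" are used only of changes past it. Of 12 astrocyte markers, all 12 were higher in the pulldown than in the flow-through of uninjured Aldh1l1 mice and of mGfap mice at P63, and their summed level in uninjured Aldh1l1 mice was 56085 to 66278 CPM against 2114 to 2549 CPM. The 5 d flow-through library of replicate 4 has a male label that neither its title nor the label of its astrocyte library bears out, and it stayed in the group its title gives. In bulk libraries, fewer cells of a type and less RNA per cell cannot be told apart.

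Of the 10 genes, 9 lie on mouse chromosome 3 (GRCm38.p6). In order along it come S100a1 (Entrez identifier 20193, chr3:90511034-90514330, minus strand), S100a13 (20196, chr3:90514233-90524581, plus), S100a16 (67860, chr3:90537254-90543151, plus), S100a4 (20198, chr3:90603770-90606045, plus), S100a6 (20200, chr3:90612894-90614414, plus), S100a8 (20201, chr3:90669071-90670034, plus) and S100a9 (20202, chr3:90692630-90695721, minus). These 7 genes fit in 184.7 kb. S100a11 (20195, chr3:93520496-93526288, plus) and S100a10 (20194, chr3:93555117-93564645, plus) lie 2.82 Mb further on, over 44.2 kb. S100b stands alone on chromosome 10 (20203, chr10:76253836-76261319, plus). S100a1 and S100a13 lie on opposite strands and share 98 bases of exon. The counting used default settings, which do not use strand, so reads within these bases cannot be told apart between them. The pseudogene S100a11-ps held 0 to 52 counts in a library, at most 3.94% of the counts of S100a11, and reads shared between the 2 copies could be split between them.

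The 200 bases before the annotated start of 6 members follow, because the members around them rose together (S100a4, S100a6, S100a11), moved as a pair (S100a8, S100a9) or fell (S100b) after SCI. They are RefSeq sequences of GRCm38.p6, written from 5′ to 3′ along the strand of the gene, and capitals mark a match to 1 of the 4 motifs searched.
S100a4 (chr3:90603570-90603769, plus strand): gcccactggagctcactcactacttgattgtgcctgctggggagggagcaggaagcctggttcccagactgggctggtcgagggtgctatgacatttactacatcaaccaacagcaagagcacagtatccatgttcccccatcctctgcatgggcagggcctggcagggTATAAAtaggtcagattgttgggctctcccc
S100a6 (chr3:90612694-90612893, plus strand): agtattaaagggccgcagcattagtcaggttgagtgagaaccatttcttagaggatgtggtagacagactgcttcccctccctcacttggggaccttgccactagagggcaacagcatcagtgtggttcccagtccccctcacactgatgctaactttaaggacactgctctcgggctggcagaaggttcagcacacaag
S100a11 (chr3:93520296-93520495, plus strand): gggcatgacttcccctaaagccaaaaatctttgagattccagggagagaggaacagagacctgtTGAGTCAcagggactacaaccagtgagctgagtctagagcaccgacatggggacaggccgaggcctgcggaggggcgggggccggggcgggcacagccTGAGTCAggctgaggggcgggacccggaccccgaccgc
S100a8 (chr3:90668871-90669070, plus strand): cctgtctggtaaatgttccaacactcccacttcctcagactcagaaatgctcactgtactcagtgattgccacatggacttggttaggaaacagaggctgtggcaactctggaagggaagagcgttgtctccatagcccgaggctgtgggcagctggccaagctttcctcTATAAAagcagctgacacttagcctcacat
S100a9 (chr3:90695722-90695921, minus strand): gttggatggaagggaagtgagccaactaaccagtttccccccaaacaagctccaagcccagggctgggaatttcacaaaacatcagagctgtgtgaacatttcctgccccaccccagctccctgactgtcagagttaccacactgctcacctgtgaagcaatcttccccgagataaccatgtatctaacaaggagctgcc
S100b (chr10:76253636-76253835, plus strand): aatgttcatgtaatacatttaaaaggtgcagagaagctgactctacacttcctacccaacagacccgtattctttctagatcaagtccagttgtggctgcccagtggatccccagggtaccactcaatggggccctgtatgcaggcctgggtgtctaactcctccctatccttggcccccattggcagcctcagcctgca

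The motifs, each searched on both strands, were the TATA box (TATAAA), an AP-1 site (TGANTCA), a STAT site (TTCNNNGAA) and a C/EBP site (TTGCNNAA), and none of the matches overlaps another. Of all 32851 windows of this length, 9.96% held the first, 5.48% the second, 5.49% the third and 7.47% the last. S100a4 and S100a8 hold a TATA box that begins 31 and 30 bases before the start. S100a11 holds 2 AP-1 matches, 136 and 38 bases before the start, and the second of 2 windows of S100a16 holds 1. The windows of S100a1, S100a6, S100a9, S100a13 and S100b hold none of these letters, and S100a10 has no window in the table. A match is a string of letters and does not show that a factor binds there.

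In uninjured Aldh1l1 astrocytes, S100b and S100a1 made up most of the family's RNA. Per length, S100b stood at 1634 ± 176 FPKM (SD, n = 4) and S100a1, which binds calcium-handling and contractile proteins in muscle and neurons, at 994 ± 116 FPKM. Next came S100a16 (202 ± 20.9 FPKM), S100a6 (198 ± 56.1), S100a10 (177 ± 34.9), S100a9 (145.3 ± 107), S100a13 (144 ± 13.3) and S100a8 (137 ± 95.3). Libraries of neighbours in that stretch overlap, while those of S100b and of S100a1 each lie above the next gene. S100a9 and S100a8 rest on replicate 1, without which they stood at 93.5 and 89.9 FPKM and S100a13 at 139 FPKM. S100a11 (42.2 ± 10.6 FPKM) and S100a4 (13.2 ± 4.65 FPKM) were lowest, with no overlap between them.

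At 2 d after SCI, 7 of the 10 genes had risen in astrocytes and 2 had fallen, where 30.2% of all 18205 genes tested rose and 29.9% fell. The median log2 change was 1.79 over the 10 genes and -0.041 over all genes. At 70 d, 8 had risen and none had fallen (23.9% and 21.5% of all genes), with medians of 1.27 and 0.048. In between, 4 rose and 2 fell at 5 d (28.7% and 28.1%), 4 rose and 1 fell at 14 d (24.5% and 22.8%), 6 rose and none fell at 28 d (22.8% and 19.1%), and 7 rose and none fell at 42 d (23.3% and 20% of all genes). For each of these calls the libraries of that day and the uninjured libraries do not overlap. How often this holds for other called genes was not counted, so it is not a trait particular to these members.

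**Figure D1:**
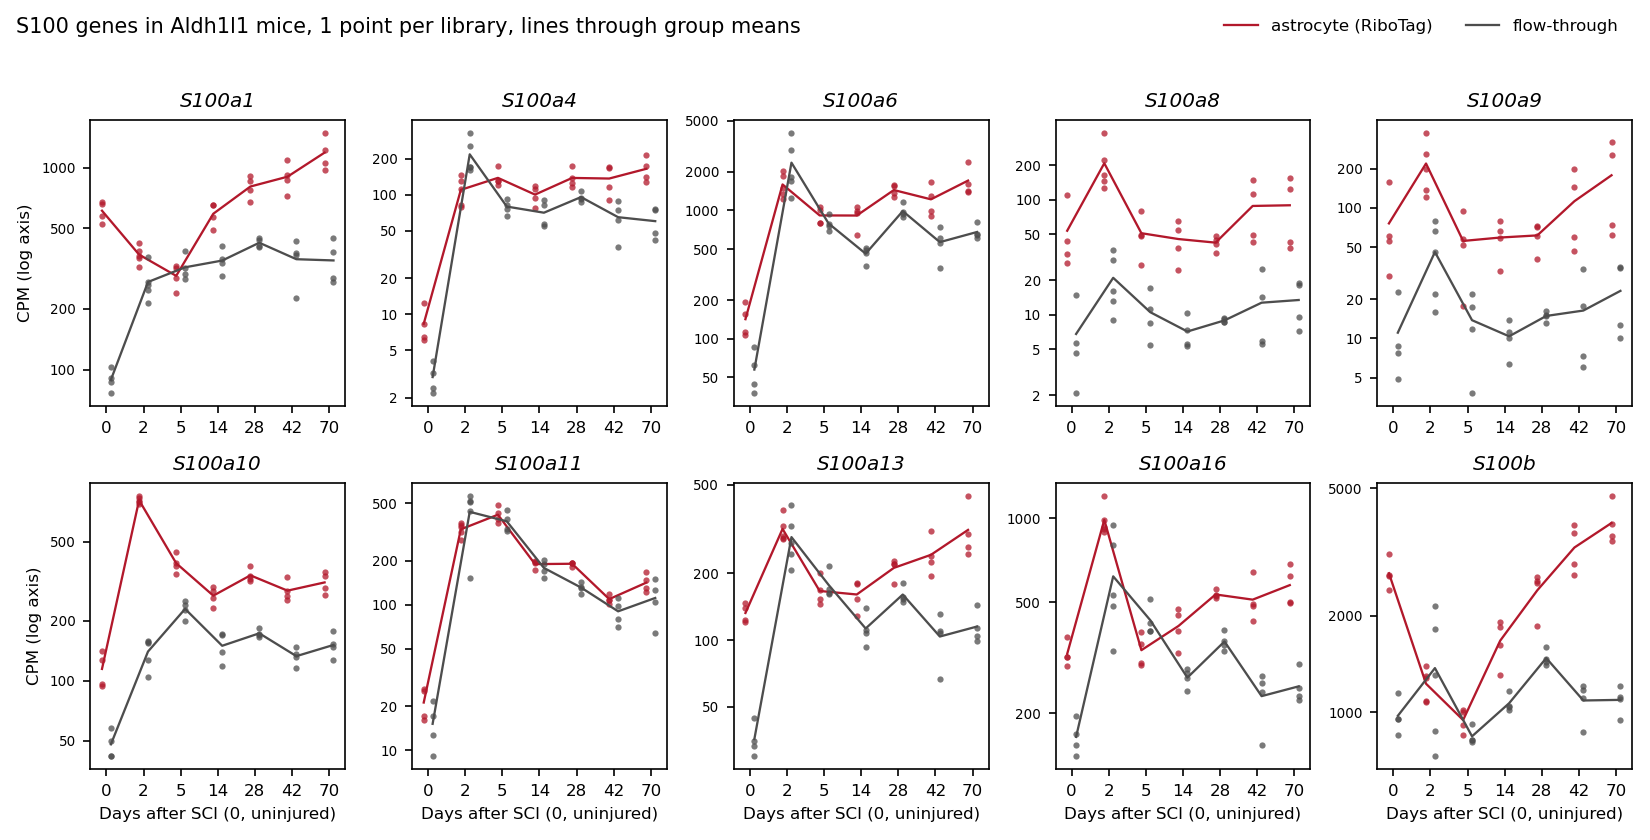
Level of each S100 gene (CPM, log axis) against days after SCI (0 is uninjured, days evenly spaced) in Aldh1l1 mice, with 1 point per library, pulldown and flow-through in 2 colours and lines through the group means. S100a4, S100a6, S100a10 and S100a11 lie above their uninjured libraries at every day, and S100b and S100a1 dip at 2 d and 5 d before passing their uninjured level by 70 d.

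S100a4, S100a6, S100a10 and S100a11 rose in astrocytes at all 6 times. S100a4, also called metastasin and known for its part in cell motility, read 12.4, 8.34, 6.41 and 6.04 CPM in the 4 uninjured astrocyte libraries. At 2 d it read 82.4, 78.4, 112, 129.8 and 145.3 CPM, and at 70 d 127, 216, 174 and 141 CPM. Every injured library lies above every uninjured one, and the group means at 2 d and later stay between 100.1 and 165 CPM. The log2 change was 3.74 ± 0.27 at 2 d (13.4-fold, adjusted p = 3e-12) and 4.34 ± 0.28 at 70 d (20.2-fold, adjusted p = 2.5e-12).

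S100a6, calcyclin, is a partner of the ubiquitin-ligase component CacyBP and of annexins. Its uninjured astrocyte libraries read 192.9, 156, 113 and 107 CPM, and those at 2 d read 1351, 1222, 1497, 2039.5 and 1849.1 CPM. The level at 2 d was 11.3-fold higher (log2 change 3.50 ± 0.23, adjusted p = 3.3e-13). It then dipped, with 795, 792, 1060.4 and 1006 CPM at 5 d, and stood at 1424, 2386, 1616 and 1398 CPM at 70 d, 12.2-fold above uninjured (log2 change 3.61 ± 0.24, adjusted p = 1.8e-12). At 2 d S100a6 was the gene with the most RNA per length in the family, with 2214 ± 477.01 FPKM (SD, n = 5), and at 70 d its libraries overlap those of S100b.

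S100a10, p11, binds annexin A2 and links it to membranes and channels. It read 141, 127, 94.8 and 96.8 CPM in uninjured astrocytes, and 786, 798, 773, 823 and 849 CPM at 2 d. The 5 libraries at 2 d lie close together, with an SD of 30.6 CPM around a mean of 806 CPM. The change was 7.09-fold at 2 d (log2 2.82 ± 0.12, adjusted p = 6.5e-18), 3.38-fold at 5 d (1.76 ± 0.12, adjusted p = 1.7e-13) and 2.77-fold at 70 d (1.47 ± 0.12, adjusted p = 2.6e-11).

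S100a11, calgizzarin, is an annexin A1 partner. Uninjured astrocyte libraries read 26.3, 25.4, 16.2 and 17.2 CPM. Those at 2 d read 316, 277, 362, 354 and 341 CPM and those at 5 d 363, 427, 487 and 386 CPM. This was the largest fold change of the family at 5 d, 19.5-fold (log2 4.28 ± 0.15, adjusted p = 2.6e-19), after 15.7-fold at 2 d (3.97 ± 0.14, adjusted p = 1.8e-19). The level then came down to 102, 108, 108 and 119 CPM at 42 d, still 5.28-fold above uninjured (2.40 ± 0.13, adjusted p = 1.8e-14).

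Markers of monocyte-derived macrophages, which use several S100 genes, were also higher in the pulldown after SCI. Their summed level over 8 genes was 26.2 to 44.3 CPM in uninjured astrocyte libraries, 1329 to 3199 CPM at 2 d, 7825 to 9210 CPM at 5 d and 331.003 to 1210 CPM at 70 d. All 8 rose at 2 d and at 5 d, 6 of 8 at 14 d and 5 of 8 at 70 d, and none of the 8 was at 0 in any of these groups. The summed macrophage level at 70 d was below that at 5 d and above that of uninjured mice in every library. Group means at 5 d and 70 d were 138 and 165 CPM for S100a4 and 914 and 1706 CPM for S100a6. For S100a11 they were 416 and 142 CPM. These differences between 5 d and 70 d were not tested, and neither was the part of these cells in the rises.

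S100b and S100a1 fell first and later rose above their uninjured levels. S100b read 3109, 2657, 2405 and 2683 CPM in uninjured astrocytes, 1077, 1299, 1088, 1396 and 1279 CPM at 2 d, and a mean of 946 ± 79.0 CPM (SD, n = 4) at 5 d. All injured libraries of these days lie below all uninjured ones. The level was 2.19-fold lower at 2 d (log2 change -1.13 ± 0.13, adjusted p = 7.9e-09), 2.88-fold lower at 5 d (-1.52 ± 0.14, adjusted p = 1.1e-10) and 1.65-fold lower at 14 d (-0.73 ± 0.14, adjusted p = 4.5e-05). The log2 values at 28 d (-0.16, adjusted p = 0.34) and 42 d (0.31, adjusted p = 0.059) missed the threshold. At 70 d the libraries read 3418, 4736, 3862 and 3554 CPM, all above the uninjured ones (1.46-fold, log2 0.55 ± 0.14, adjusted p = 0.0012).

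S100a1 read 678, 578, 527 and 662 CPM in uninjured astrocytes, 322.5, 364, 356, 422 and 388 CPM at 2 d and 283, 239, 317 and 325 CPM at 5 d. It was 1.63-fold lower at 2 d (log2 change -0.71 ± 0.13, adjusted p = 2.1e-05) and 2.11-fold lower at 5 d (-1.08 ± 0.14, adjusted p = 8.2e-08). At 14 d the libraries read 649, 491, 652 and 569.7 CPM and overlap the uninjured ones (-0.08, adjusted p = 0.65). At 42 d S100a1 was 1.51-fold above uninjured (0.60 ± 0.14, adjusted p = 0.00053), and at 70 d, with 973, 1489, 1225 and 1055 CPM, 1.98-fold (0.98 ± 0.14, adjusted p = 7.7e-07). Its value at 28 d, 0.41 (adjusted p = 0.013), passed the threshold when uninjured and 28 d libraries were fitted alone (0.41, adjusted p = 0.0072) and without the 28 d astrocyte library of replicate 1 (0.48, adjusted p = 0.0066). Over the 12 astrocyte markers, the summed level in the pulldown was 23883 to 32968 CPM at 2 d against 56085 to 66278 CPM in uninjured mice, and 9 of 12 fell at 2 d, 11 of 12 at 5 d and 9 of 12 at 70 d, with 1 higher at 70 d. S100b and S100a1 both fell at 2 d and 5 d and rose at 70 d. The part of astrocyte number in their changes was not tested.

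S100a13 and S100a16 rose at 2 d and again late. S100a13, which takes part in the release of proteins without a signal peptide, read 146.4, 123, 121 and 139 CPM in uninjured astrocytes and 286, 295, 287, 387 and 327 CPM at 2 d (2.41-fold, log2 1.27 ± 0.16, adjusted p = 4.2e-08). S100a16, one of the most widely expressed members of the family, read 374.4, 317.98, 295 and 318.07 CPM in uninjured astrocytes and 934, 918, 893, 1208 and 989 CPM at 2 d (3.06-fold, 1.61 ± 0.13, adjusted p = 6.5e-12). At 5 d the log2 changes were 0.33 (adjusted p = 0.077) for S100a13 and 0.04 (adjusted p = 0.8) for S100a16, with overlapping libraries. Both were past the threshold again at 28, 42 and 70 d, and at 70 d S100a13 was 2.41-fold (1.27 ± 0.16, adjusted p = 2e-07) and S100a16 1.80-fold (0.85 ± 0.13, adjusted p = 3.6e-06) above uninjured.

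S100a8 and S100a9 varied most between libraries of 1 group. S100a8 read 109, 43.8, 28.2 and 33.7 CPM in the uninjured pulldown and 382.5, 126, 144, 163 and 219 CPM at 2 d. S100a9 read 157.5, 61.2, 30.1 and 55.6 CPM in the uninjured pulldown and 378.7, 138, 121, 201 and 258.07 CPM at 2 d. In both genes replicate 1 was the highest library of its group. S100a8 was past the threshold at 2 d (3.90-fold, log2 1.96 ± 0.50, adjusted p = 0.0013) and at no later time, and S100a9 at none (at 2 d 2.91-fold, 1.54 ± 0.57, adjusted p = 0.02). Without the uninjured astrocyte library of replicate 1 the log2 change at 2 d became 2.56 for S100a8 (adjusted p = 0.00021) and 2.17 for S100a9 (adjusted p = 0.0037), and DESeq2 also called S100a9 at 2 d (1.54, adjusted p = 0.0068).

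The pair's level was set beside that of neutrophil markers. Both are sums of CPM, not per length, so their ratio serves to compare groups of libraries and does not show which is more abundant. In the uninjured pulldown the summed CPM of S100a8 and S100a9 was 0.936 to 1.15 times the summed CPM of 12 neutrophil markers, and at 2 d it was 1.71 to 3.13 times. At 2 d, 3 of these 12 markers rose in the pulldown and none fell, with a median log2 change of -0.81 over the list. Their summed CPM had a higher median at 2 d, 152.7 CPM (127.4 to 338.4) against 94.8 CPM (62.4 to 232.2) in the uninjured pulldown. The libraries of these 2 groups overlap, and the difference in the sum was not tested. In 19 of the 28 groups of libraries, the library with the highest level of the pair was also the highest for the neutrophil list, and in the others it was not. In 8 of 11 conditions with both kinds of library, the same mouse was highest for the pair in both. Groups held 3 to 5 libraries, so part of these matches would come by chance, and no rate for this was computed. The part of neutrophil RNA in these levels was not tested.

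**Figure D2:**
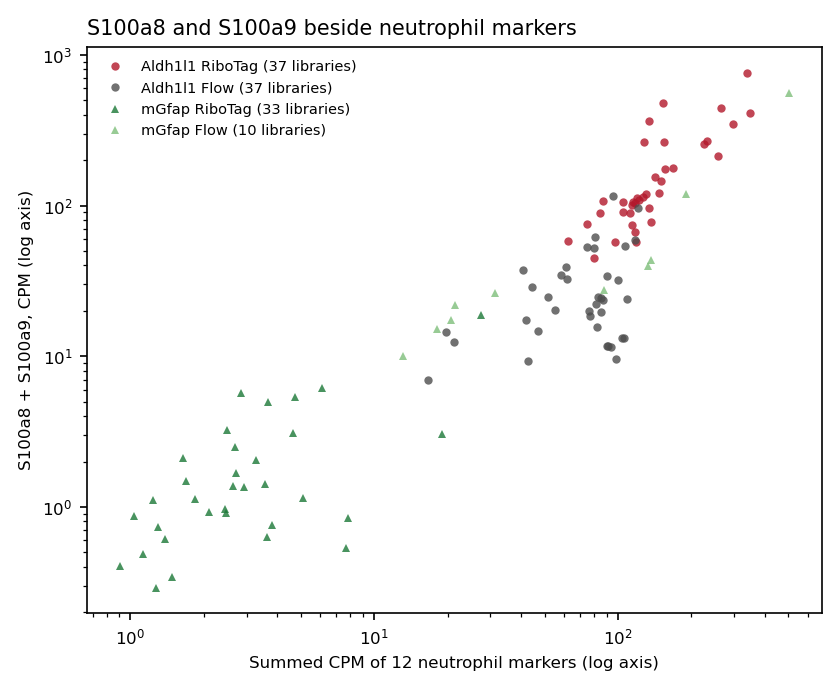
Summed CPM of S100a8 and S100a9 against the summed CPM of 12 neutrophil markers, both on log axes, with 1 point per library. The Aldh1l1 pulldown lies at the upper right (uninjured median 97.2 against 94.8 CPM) and the mGfap pulldown at P63 at the lower left (1.41 against 2.86 CPM).

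Successive times separated the members further. From 2 d to 5 d, 6 of the 10 genes fell (19.6% of all genes fell) and none rose (21.8%). S100a16 fell 2.98-fold (log2 -1.57 ± 0.13, adjusted p = 4.9e-11), S100a10 fell 2.10-fold (-1.07 ± 0.11, adjusted p = 4.2e-09), and S100a6 (-0.82 ± 0.21, adjusted p = 0.0015) and S100a13 (-0.95, adjusted p = 9.2e-06) fell with them. S100a8 fell 4.10-fold (-2.04 ± 0.50, adjusted p = 0.0015) and S100a9 3.97-fold (-1.99 ± 0.58, adjusted p = 0.0058). The call of S100a9 was lost without replicate 1 or 5 at 2 d or without replicate 1, 2 or 3 at 5 d, with values of -2.01 to -1.69 and adjusted p of 0.011 to 0.025. S100a4 and S100a11 missed the threshold (0.31 for both, adjusted p = 0.26 and 0.029), although every 5 d library of S100a11 lies above every 2 d library. S100b missed it too (-0.39, adjusted p = 0.012) except without replicate 1 at 2 d (-0.44, adjusted p = 0.0078).

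From 5 d to 14 d, 2 genes rose (12.7% of all genes) and 2 fell (12.6%). S100a1 rose 2.00-fold (log2 1.00 ± 0.14, adjusted p = 1.7e-06) and S100b 1.74-fold (0.80 ± 0.14, adjusted p = 3.6e-05), while S100a11 fell 2.22-fold (-1.15 ± 0.13, adjusted p = 5.8e-08) and S100a10 fell by 0.56 on the log2 scale (adjusted p = 0.00028). From 14 d to 28 d, 1 gene rose (2.92%) and none fell (4.48%). This was S100b (1.48-fold, 0.56 ± 0.14, adjusted p = 0.0054), whose call was lost without replicate 2 or 4 at 14 d or without replicate 2, 3 or 4 at 28 d, at 0.46 to 0.55 and adjusted p of 0.015 to 0.04. From 28 d to 42 d, 1 gene fell (0.851%) and none rose (0.818%), which was S100a11 (1.72-fold lower, -0.78 ± 0.13, adjusted p = 0.0014). Between 42 d and 70 d none of the 10 passed the threshold of edgeR's test, where 5.14% of all genes rose and 7.45% fell, and the smallest adjusted p was 0.036, for S100a11. At an unadjusted p under 0.05 there were 4, and DESeq2 also called none.

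The family's make-up per length changed with its sum. Summed over the 10 genes, the pulldown held 3687 ± 588 FPKM in uninjured mice, 7529.6 ± 870 FPKM at 2 d, 4584 ± 571 FPKM at 5 d and 8934 ± 1961 FPKM at 70 d (SD). S100b supplied 44.6% of this sum in uninjured mice, 9.89% at 2 d and 26.5% at 70 d. S100a6 supplied 5.31%, 29.2% and 26.4%, and S100a10 4.79%, 16.6% and 5.46%. S100a11 was at its largest share at 5 d, with 18.1% against 1.14% in uninjured mice. S100a4, with the largest fold change at 70 d, supplied 0.353% in uninjured mice and 2.93% at 70 d.

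**Figure D3:**
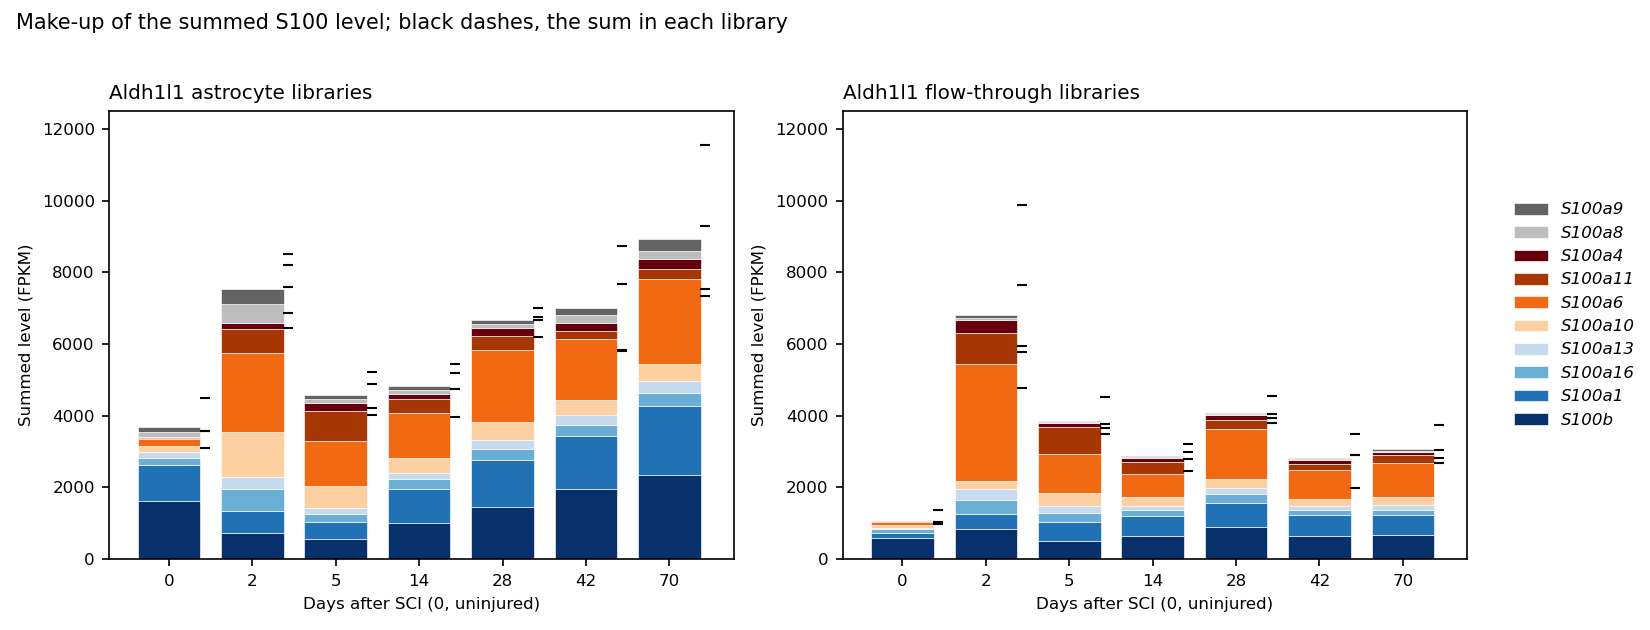
Mean FPKM of the 10 S100 genes stacked for each day in the pulldown and the flow-through of Aldh1l1 mice, with dashes for the sum in each library. In the pulldown, S100b and S100a1 fill most of the uninjured bar, and S100a6 and S100a10 are the largest parts of the bar at 2 d. The pulldown sum at 70 d (8934 FPKM) is above the uninjured 3687 FPKM.

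In the flow-through, the RNA left after the pulldown, fitted fold changes at 2 d were larger for several members. At 2 d, 9 of the 10 genes rose and none fell, where 32.6% of the 19207 genes tested rose and 32.9% fell. S100a4 read 4.09, 3.19, 2.43 and 2.18 CPM in uninjured flow-through and 162, 330.4, 172, 254.4 and 169 CPM at 2 d, a 74.4-fold rise (log2 6.22 ± 0.32, adjusted p = 6.4e-16). S100a6 rose 41.6-fold (5.38 ± 0.33, adjusted p = 1.8e-14) and S100a11 28.99-fold (4.86 ± 0.33, adjusted p = 1.8e-13). The libraries at 2 d are spread widely, with 1244, 4033, 1699, 2952 and 1835 CPM for S100a6, and in all 3 genes every one lies above the uninjured libraries.

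S100a1, which fell in the pulldown, rose in the flow-through at 2 d (3.10-fold, 1.63 ± 0.18, adjusted p = 2.9e-09) and was still 1.98 ± 0.19 above uninjured on the log2 scale at 70 d. S100b missed the threshold at 2 d in the flow-through (0.52 ± 0.20, adjusted p = 0.023). Its 2 d libraries read 730.4, 1821, 1306, 2138 and 872 CPM and overlap the uninjured range of 850.4 to 1146 CPM. Without the 2 d flow-through library of replicate 1 the value was 0.70 (adjusted p = 0.00084) and without that of replicate 5 it was 0.65 (adjusted p = 0.0041). Fibroblast markers, 7 genes of matrix-forming cells, summed to 1374 to 8818 CPM in the flow-through at 2 d against 263 to 585 CPM in uninjured mice, and their part in these rises was not tested.

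S100a8 and S100a9 rose in the flow-through at 2 d only. The values were 1.64 ± 0.50 (adjusted p = 0.0046) for S100a8 and 2.07 ± 0.57 (adjusted p = 0.0018) for S100a9. Without the uninjured flow-through library of replicate 1, which was the highest of its group, they became 2.36 and 2.72. The call of S100a8 was lost without uninjured flow-through replicate 2, 3 or 4 or 2 d replicate 1 or 2 (1.34 to 1.56, adjusted p = 0.011 to 0.022), without the filter on low counts (1.51, adjusted p = 0.011) and with the 2 groups fitted alone (1.56, adjusted p = 0.035). That of S100a9 was lost without uninjured replicate 3 (1.83, adjusted p = 0.01) and with the 2 groups alone (1.99, adjusted p = 0.011). At 42 d and 70 d S100a8 was called only without uninjured replicate 1 (1.64 and 1.71, adjusted p = 0.0096 and 0.0083).

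Later, 7 genes had risen on each of days 5, 14 and 28, when 27.7%, 24.6% and 26.4% of all genes rose. On days 42 and 70 it was 6 genes each, with 25.3% and 21.8% of all genes. None had fallen on these days, when 21.8%, 19.5%, 22.6%, 19.2% and 15.7% of all genes fell. S100a1, S100a4, S100a6, S100a10, S100a11 and S100a13 rose at all 6 times. Scaling by RLE in place of TMM lowered the median of all genes by 0.11 at 2 d and by 0.14 at 5 d in this series, and it reversed no member but ended 1 call. S100a16 rose at 2, 5, 14 and 28 d, and its value at 14 d, 0.73 (adjusted p = 0.0056), missed the threshold with RLE scaling (0.61, adjusted p = 0.024), by DESeq2 (0.61, adjusted p = 0.015) and without uninjured flow-through replicate 2, 3 or 4 or 14 d replicate 1, 3 or 4 (0.60 to 0.73, adjusted p = 0.012 to 0.038). Fitted with uninjured libraries alone, S100b at 28 d (0.59, adjusted p = 5.4e-05) and S100a16 at 70 d (0.63, adjusted p = 0.002) passed it.

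The change after SCI in the pulldown was then tested against that in their flow-through, as a difference of log2 changes over 19640 genes. At 2 d, 1 gene changed more upward in the pulldown (30.1% of all genes) and 5 more downward (20.6%). S100a10 was the 1, with a difference of 1.44 ± 0.17 (adjusted p = 4.4e-10), and it was called in all 13 alternatives, at 1.31 to 1.495. The 5 were S100a4 (-2.29 ± 0.35, adjusted p = 1.7e-07), S100a1 (-2.15 ± 0.22, adjusted p = 4.4e-12), S100a6 (-1.69 ± 0.34, adjusted p = 2.8e-05), S100a13 (-1.59 ± 0.25, adjusted p = 2e-07) and S100b (-1.47 ± 0.25, adjusted p = 1e-06). S100a11 missed it (-0.71, adjusted p = 0.043) except without replicate 4 at 2 d (-0.95, adjusted p = 0.0015).

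Over all genes the median of this difference was 0.30, 0.19, 0.13 and 0.10 at 2, 5, 14 and 28 d. Relative to it, the difference at 2 d was 1.15 for S100a10, -2.59 for S100a4, -2.45 for S100a1 and -1.76 for S100b. At 5 d, 4 genes changed more downward in the pulldown (10.9% of all genes) and none more upward (17.7%). They were S100a1 (-2.79 ± 0.23, adjusted p = 3.4e-14), S100a13 (-1.85 ± 0.26, adjusted p = 5.8e-08), S100a16 (-1.22 ± 0.26, adjusted p = 0.00012) and S100b (-1.18 ± 0.26, adjusted p = 0.00019). S100a6 (-0.97, adjusted p = 0.028) was called only with the mouse as a block (-1.01, adjusted p = 0.0029) or by DESeq2 (-1.07, adjusted p = 0.0096).

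S100a1 and S100a13 were the 2 genes called at 14 d and at 28 d (10% and 12.9% of all genes lower), and S100a1 alone at 42 d (10.7%) and at 70 d (8.9%). The difference for S100a1 shrank from -2.79 at 5 d to -0.94 ± 0.23 at 70 d (adjusted p = 0.0013), where it was lost without replicate 4 at 70 d (-0.84, adjusted p = 0.011). S100b was called at 14 d and 28 d only with the mouse as a block (-0.76 and -0.71, adjusted p = 0.0037 and 0.0058, against 0.021 and 0.029 without it). None of the 10 was higher at 14, 28, 42 or 70 d, where 14.5%, 15.5%, 12.6% and 8.8% of all genes were.

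Within single conditions, the pulldown held more S100 RNA than the flow-through in uninjured mice and long after SCI. In uninjured Aldh1l1 mice, 9 of the 10 genes were higher in the pulldown and none lower (30.7% and 31.3% of all genes). S100a1 was 6.74-fold higher (log2 2.75 ± 0.12, adjusted p = 1.5e-09), S100a13 3.63-fold (1.86 ± 0.12, adjusted p = 7.4e-08), S100a4 2.74-fold (1.46 ± 0.27, adjusted p = 0.0005), S100b 2.73-fold (1.45 ± 0.11, adjusted p = 3.2e-07), S100a10 2.35-fold (1.23 ± 0.15, adjusted p = 2.2e-05) and S100a16 1.95-fold (0.96 ± 0.11, adjusted p = 1.2e-05). S100a6 was 2.42-fold higher (1.28 ± 0.29, adjusted p = 0.004), a call lost without astrocyte replicate 1 or flow-through replicate 2 or 3 (1.12 to 1.32, adjusted p = 0.011 to 0.015). S100a11 missed the threshold (0.46 ± 0.27, adjusted p = 0.15) and passed it with the mouse as a block (0.50, adjusted p = 0.0032).

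S100a8 and S100a9, which astrocytes are not known for, were also higher in the uninjured Aldh1l1 pulldown. S100a8 read 14.7, 4.65, 2.08 and 5.72 CPM in the flow-through against 28.2 to 109 CPM in the pulldown (7.77-fold, 2.96 ± 0.71, adjusted p = 0.0064), and S100a9 was 6.78-fold higher (2.76 ± 0.68, adjusted p = 0.0071). Both calls were lost without astrocyte replicate 1 (2.37 and 2.14, adjusted p = 0.017) and without flow-through replicate 2, 3 or 4 (2.51 to 2.88, adjusted p = 0.015 to 0.024), and without the filter on low counts (2.95 and 2.76, adjusted p = 0.014 and 0.015), and without flow-through replicate 1 the values were 3.67 and 3.40. Within single mice the log2 ratio of pulldown to flow-through was 2.56 to 3.76 for S100a8 and 2.63 to 2.99 for S100a9. It was above 0 in all 4 mice, and both calls stood with the mouse as a block. Of the 12 neutrophil markers, 9 were higher in the uninjured Aldh1l1 pulldown and 1 was lower, with a median log2 difference of 2.62.

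At 2 d, 3 genes were higher in the pulldown (27.7% of all genes) and 1 lower (28.1%). S100a10 was 5.52-fold higher (2.47 ± 0.13, adjusted p = 2.4e-08). Within single mice its log2 ratio of pulldown to flow-through was 1.17 to 1.35 in uninjured mice and 2.31 to 2.97 at 2 d, with no overlap. S100a4 was 2.07-fold lower in the pulldown at 2 d (-1.05 ± 0.25, adjusted p = 0.0025), below the flow-through in each of the 5 mice, at log2 ratios of -2.07 to -0.22. S100a8 and S100a9 were 9.51-fold and 4.57-fold higher (adjusted p = 3.8e-05 and 0.0011), and the other 6 genes missed the threshold. Among these, S100a1 (0.39, adjusted p = 0.025) was called by DESeq2 (0.41, adjusted p = 0.008) and without flow-through replicate 3 (0.56, adjusted p = 0.0015), S100a16 (0.61) without flow-through replicate 2 (0.87, adjusted p = 0.0044), and S100a11 (-0.45) without flow-through replicate 4 (-0.63, adjusted p = 0.00055).

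**Figure D4:**
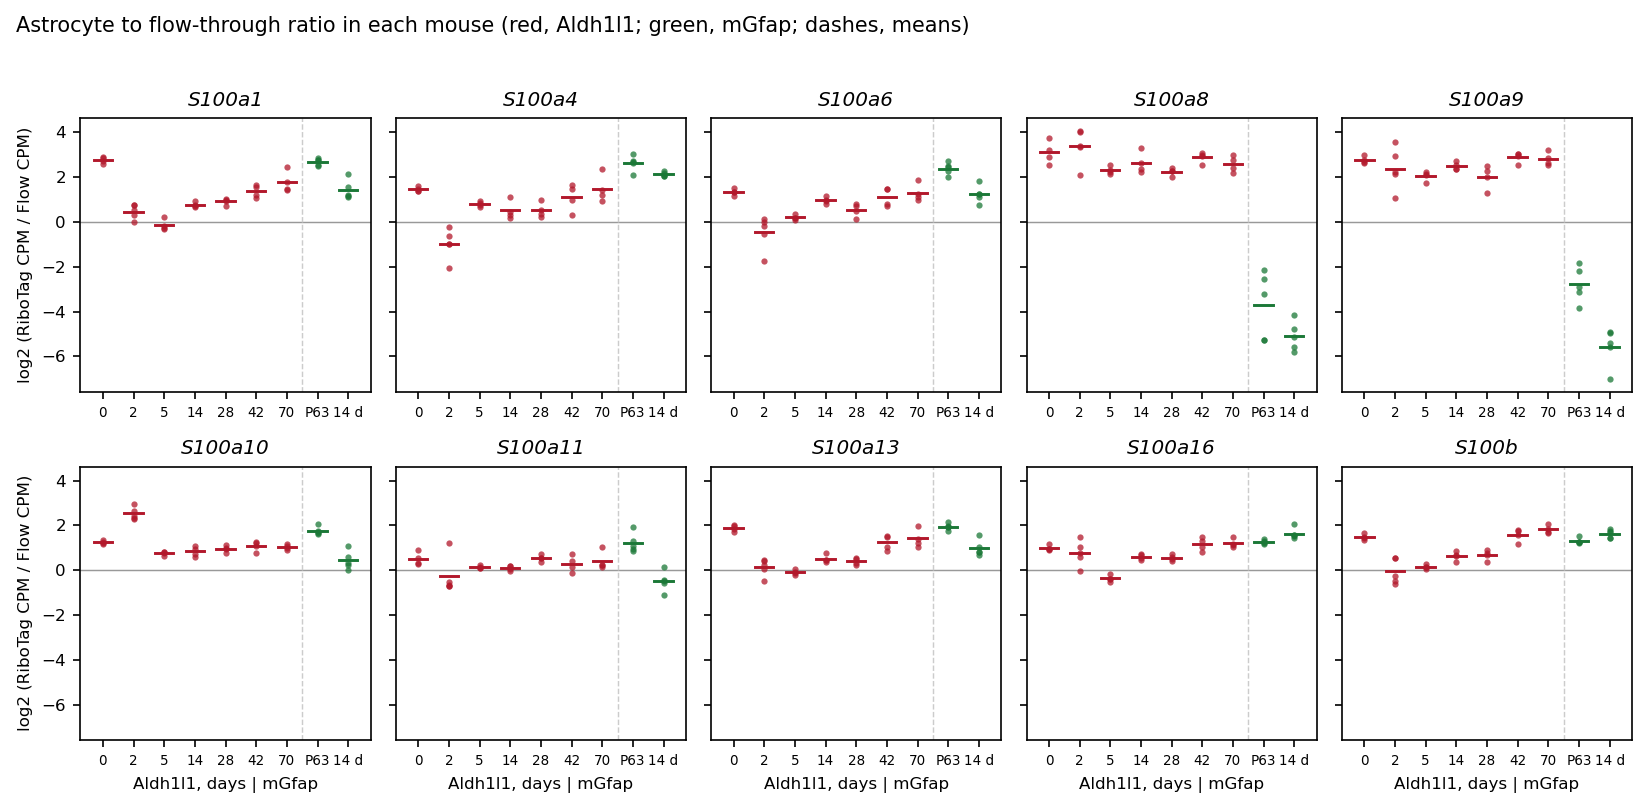
Log2 ratio of pulldown to flow-through CPM of each S100 gene within single mice, for the Aldh1l1 conditions (red) and the mGfap conditions (green), with dashes at the means. S100a10 peaks at 2 d (2.31 to 2.97), S100a1 drops from a mean of 2.78 in uninjured mice to -0.14 at 5 d, and S100a8 and S100a9 are above 0 in Aldh1l1 means and below 0 in mGfap means.

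At 5 d, 3 genes were higher in the pulldown (32.4% of all genes) and 1 lower (32%). S100a4 (0.68, adjusted p = 0.00019), S100a10 (0.64, adjusted p = 3.2e-05) and S100a8 (2.16, adjusted p = 0.0027) were higher. S100a16 was 1.39-fold lower (-0.48 ± 0.11, adjusted p = 0.0014), in all 4 mice. S100a8 lost its call without flow-through replicate 3 (2.19, adjusted p = 0.011), while its log2 ratio within single mice was 2.12 to 2.53. With the mouse as a block, S100a9 (1.92, adjusted p = 1.6e-11) was also higher, and S100a1 (-0.26, adjusted p = 0.004) and S100a13 (-0.21, adjusted p = 0.0021) were lower, against adjusted p-values of 0.042, 0.056 and 0.11 without it.

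At later times the difference came back for most members. At 14 d, 7 genes were higher (30.7% of all genes), at 28 d all 10 (32%), at 42 d 9 (24.1%) and at 70 d 9 (22.6%), and none was lower (31.7%, 32.4%, 22.7% and 23.1%). At 14 d S100a13 (0.41, adjusted p = 0.015) was called with the mouse as a block (0.41, adjusted p = 0.00015), and at 28 d S100a4 (0.49) was not (0.48, adjusted p = 0.011), nor without flow-through replicate 3 (0.45, adjusted p = 0.011). At 42 d S100a4 (1.07) lost its call without astrocyte replicate 1 or 4 or flow-through replicate 3 or 4 (0.92 to 1.14, adjusted p = 0.01 to 0.019), S100a8 (2.79) without flow-through replicate 2 (2.55, adjusted p = 0.014), and S100a9 (2.78) without flow-through replicate 2 or astrocyte replicate 4 (2.54 and 2.62, adjusted p = 0.024 and 0.013), and S100a9 was 3.44 without flow-through replicate 1. Without the filter on low counts S100a4, S100a8 and S100a9 were not called at 42 d (adjusted p = 0.011, 0.011 and 0.018), nor S100a9 at 70 d (0.011). Within single mice at 42 d the log2 ratio was 0.30 to 1.65 for S100a4, 2.55 to 3.07 for S100a8 and 2.54 to 3.04 for S100a9. With the mouse as a block these calls at 42 d stood. S100a1 had ratios of 1.35 at 42 d and 1.73 at 70 d and S100b of 1.58 and 1.78, on the log2 scale. S100a11 was the gene that missed at 42 d and 70 d (0.27 and 0.30).

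The mGfap line gave the same comparison in other mice. At P63, 8 genes were higher in the pulldown (32.6% of all genes) and 2 lower (35.2%). S100a1 was 6.19-fold higher (2.63 ± 0.10, adjusted p = 3.3e-12) and S100a4 5.88-fold (2.56 ± 0.18). S100a8 and S100a9 were the 2 lower genes. S100a8 read 1.83, 0.179, 0.144, 1.69 and 0.382 CPM in the pulldown and 8.10, 6.93, 5.65, 9.96 and 3.55 CPM in the flow-through (8.39-fold lower, -3.07 ± 0.61, adjusted p = 0.00041), without overlap, and S100a9 was 5.73-fold lower (-2.52 ± 0.46, adjusted p = 0.00023). None of the 9 neutrophil markers tested there was higher in the pulldown and 8 were lower.

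At 14 d after SCI in the mGfap line, 5 genes were higher (23.3% of all genes) and 2 lower (23.6%). S100a8 and S100a9 were again lower, 30.6-fold and 35.3-fold (-4.94 ± 1.18 and -5.14 ± 1.37, adjusted p = 0.0037 and 0.007), and below the flow-through in every one of the 5 mice. Replicate 1 was far above the others in both kinds of library, with 11.8 CPM of S100a9 in the pulldown (0.175 to 1.74 CPM in the others) and 365 CPM in the flow-through (17.7 to 73.2 CPM). Without its astrocyte library the values were -6.54 and -7.14, and without its flow-through library -3.60 and -3.56, where S100a9 was no longer called (adjusted p = 0.017). S100a9 also lost its call without astrocyte replicate 2, 3, 4 or 5 or flow-through replicate 4 (-5.25 to -4.83, adjusted p = 0.013 to 0.024) or without the filter on low counts (-5.13, adjusted p = 0.016), and S100a8 without astrocyte replicate 4 (-4.82, adjusted p = 0.015). Erythroid genes, which mark blood, summed to 657 CPM in the flow-through of replicate 1 and to 28.7 to 63.3 CPM in the other 4 mice, and their part was not tested. S100a6 (1.23, adjusted p = 0.0065) lost its call without astrocyte replicate 1, 3 or 4 or flow-through replicate 2, 3 or 5 (0.92 to 1.26, adjusted p = 0.011 to 0.02), and S100a13 (1.01, adjusted p = 0.013) passed with the mouse as a block (0.93, adjusted p = 0.00047). Within single mice the log2 ratio of S100a6 was 0.77 to 1.84.

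Several members also rose after SCI in the mGfap pulldown. From P63 to 14 d after SCI, 6 of the 10 genes were higher (27.7% of all 17848 genes tested) and none lower (16.4%), and the median change of all genes was 0.169. S100a4 read 13.5, 16.3, 19.1, 17.9 and 13.9 CPM at P63 and 309, 119.7, 205, 280.0 and 152 CPM after SCI (14.3-fold, 3.83 ± 0.27, adjusted p = 2.4e-09). S100a11 read 18.9, 24.1, 23.7, 21.04 and 14.1 CPM and then 186, 103, 196, 167 and 145.3 CPM (8.46-fold, 3.08 ± 0.19, adjusted p = 5.3e-10). In both genes every injured library lies above every P63 library.

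S100a6 (5.64-fold, 2.50 ± 0.26, adjusted p = 2.9e-07), S100a16 (2.23-fold, 1.16 ± 0.16, adjusted p = 5.8e-06) and S100a10 (1.96-fold, 0.97 ± 0.13, adjusted p = 4.4e-06) rose as well. S100a13 also rose (1.69-fold, 0.76 ± 0.22, adjusted p = 0.0063), but its value was 0.40 without the injured library of replicate 1 (adjusted p = 0.0078). It lost its call without P63 replicate 1, 2, 3 or 5 (0.70 to 0.77, adjusted p = 0.012 to 0.019), with RLE scaling (0.69, adjusted p = 0.011) and with the sex label as a covariate (0.75, adjusted p = 0.055). S100b missed the threshold (-0.08 ± 0.14, adjusted p = 0.65), and S100a1 (0.60, adjusted p = 0.011) was called by DESeq2 (0.53, adjusted p = 0.0099) and without injured replicate 2 or 5 (0.74 and 0.66, adjusted p = 0.001 and 0.0089). The injured mice were all female and the P63 mice mostly male.

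Summed macrophage markers were 143 to 896 CPM in the injured mGfap pulldown, against 4242 to 9068 CPM in the Aldh1l1 pulldown at the same day, and all 8 were lower in the mGfap line. S100a4 was 2.23-fold higher in the mGfap than in the Aldh1l1 pulldown at 14 d (1.16 ± 0.26, adjusted p = 0.0018). Its means were 213 ± 80.8 and 100.1 ± 18.2 CPM, and those of S100a11 were 159 ± 37.2 and 190.2 ± 12.3 CPM (SD, n = 5 and 4). The part of macrophage RNA in either line was not tested.

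In the pulldown of uninjured mice, only S100a8 and S100a9 of the 10 genes passed the threshold between the lines. These 2 were lower in the mGfap line (6.86% of all genes) and none was higher (5.54%). At an unadjusted p under 0.05 there were 4. S100a8 was 64.6-fold lower (-6.01 ± 0.94, adjusted p = 0.00019) and S100a9 37.9-fold (-5.25 ± 0.97, adjusted p = 0.00084). Without the uninjured Aldh1l1 library of replicate 1 the values were -5.42 and -4.62 and both were called. With the sex label as a covariate they were -5.70 and -5.14 and neither was (adjusted p = 0.018 and 0.039). Of the 12 neutrophil markers 11 were lower as well, with a median of -5.56, and Ly6g and Ctsg were at 0 in every mGfap astrocyte library at P63. S100a4 (0.92, adjusted p = 0.017) was called by DESeq2 (0.94, adjusted p = 0.0013) and without the uninjured Aldh1l1 library of replicate 1 (1.18, adjusted p = 0.0047). It was also called with a replicate block (1.04, adjusted p = 0.0089), and its mGfap libraries lie above all uninjured Aldh1l1 ones. S100a6 missed the threshold at a difference of 0.78.

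At 14 d after SCI, 3 genes were higher in the mGfap line (12% of all genes) and 2 lower (11.4%). S100a16 (0.74 ± 0.17, adjusted p = 0.0019) and S100b (1.59-fold, 0.67 ± 0.15, adjusted p = 0.0016) were higher beside S100a4. S100a16 missed the threshold without Aldh1l1 replicate 2 at 14 d (0.64, adjusted p = 0.011), and S100a1 (0.63, adjusted p = 0.02) passed it without mGfap replicate 2 (0.77, adjusted p = 0.0022). S100a8 was 22.6-fold (-4.50 ± 0.86, adjusted p = 0.00045) and S100a9 19.3-fold lower (-4.27 ± 0.92, adjusted p = 0.0013), and without mGfap replicate 1 at 14 d these were -6.09 and -6.26. Oligodendrocyte markers were all 8 higher in the mGfap pulldown, at 27927 to 41953 CPM against 2366 to 3060 CPM, and their part in the line differences was not tested.

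The change after SCI itself differed between the lines past the threshold for none of the 10 genes by edgeR, where 12.7% of all genes did, with a median of 0.111 over all genes. At an unadjusted p under 0.05 there were 3, and DESeq2 also called none. The smallest adjusted p-values were those of S100a16 (0.82 ± 0.24, adjusted p = 0.018), which passed without mGfap replicate 2 at 14 d (0.93, adjusted p = 0.0039), and S100b (0.61 ± 0.21, adjusted p = 0.042). For S100a11 the difference was -0.09 ± 0.27 (adjusted p = 0.86), an estimate whose SE leaves room for a difference in either direction.

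In the mGfap pulldown from birth to P63, S100b and S100a1 climbed and S100a4 fell. These libraries also held Schwann cell markers, given below. S100b read 51.0, 128, 146.5 and 163 CPM at P0, 499, 638 and 668 CPM at P7 and 2149, 1569.6, 2210.4, 1783 and 1856 CPM at P14. It was 23.7-fold higher at P63 than at P0 (log2 4.57 ± 0.25, adjusted p = 1.1e-14), with steps of 4.91-fold to P7 (2.29 ± 0.24, adjusted p = 6.2e-08) and 3.19-fold from P7 to P14 (1.67 ± 0.24, adjusted p = 8.3e-06). No library at P14 or later overlaps those at P7 or earlier. S100a1 read 47.3, 64.7, 49.5 and 82.6 CPM at P0 and 529.03 to 687 CPM at P63 (10.2-fold, 3.35 ± 0.16, adjusted p = 1.5e-15), and S100a13 rose 6.65-fold (2.73 ± 0.16, adjusted p = 6e-14).

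**Figure D5:**
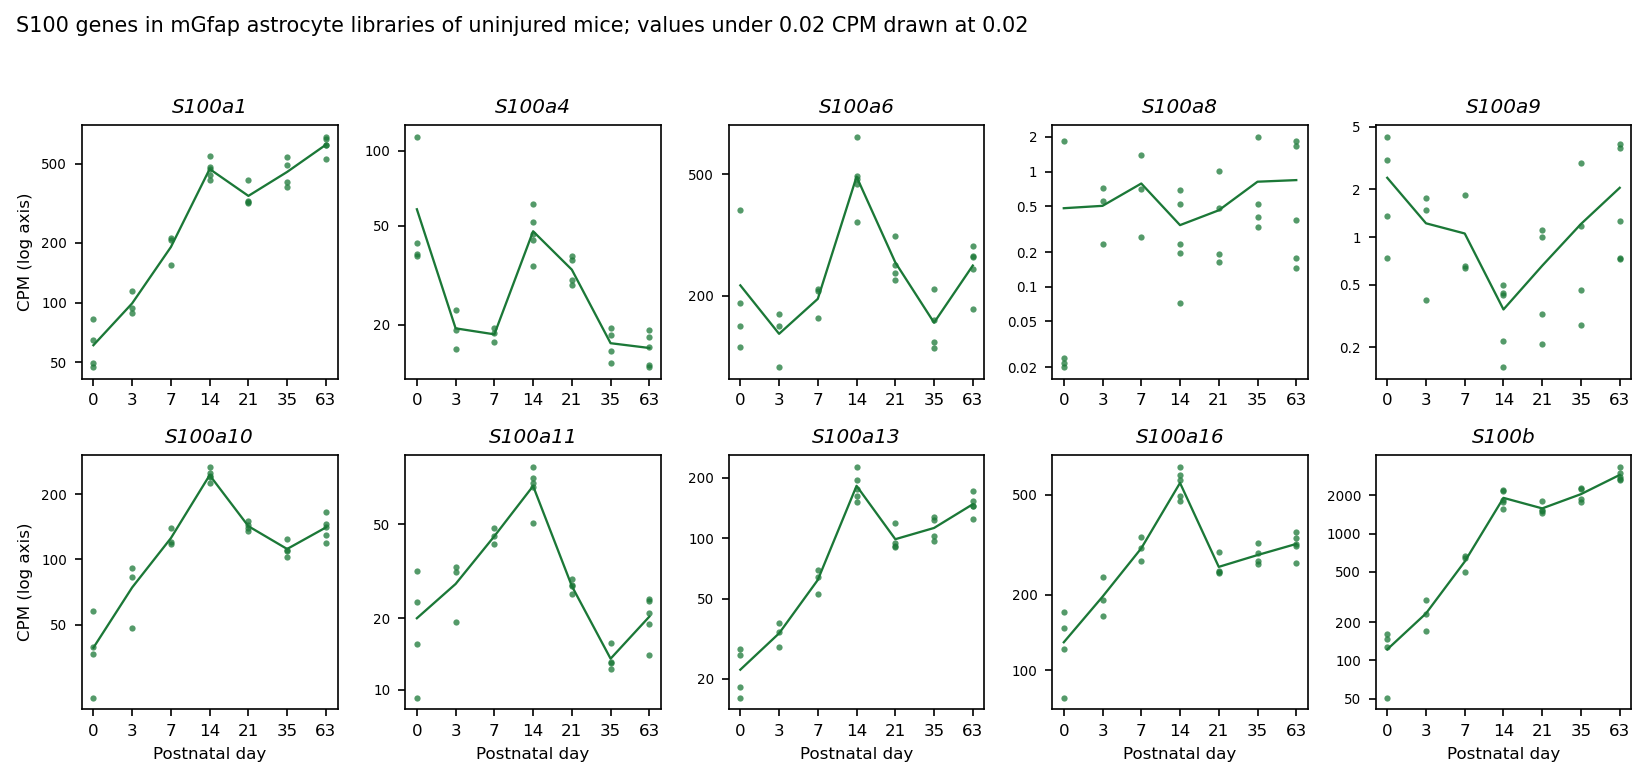
Level of each S100 gene (CPM, log axis) against postnatal day (evenly spaced) in the pulldown of uninjured mGfap mice. There is 1 point per library, with lines through group means and values under 0.02 CPM drawn at 0.02. S100b climbs from a mean of 122 CPM at P0 to 2903 CPM at P63, S100a11 is highest at P14 (72.6 CPM), and S100a4 ends below its P0 level.

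Between P0 and P63, 5 genes rose (25.1% of all 18041 genes tested) and 1 fell (25.1%). S100a4 read 42.8, 37.6, 114 and 38.4 CPM at P0 and 13.5 to 19.1 CPM at P63, 3.61-fold lower (-1.85 ± 0.24, adjusted p = 1.8e-07). S100a11 (0.02 ± 0.23, adjusted p = 0.94) and S100a6 (0.21, adjusted p = 0.43) missed the threshold, and S100a6 passed the threshold without P0 replicate 3 (0.66, adjusted p = 0.0039). That library was the highest of its group for S100a4, S100a6 and S100a11, and its summed Schwann cell markers (20577 CPM) and fibroblast markers (10037 CPM) were the highest and its astrocyte markers (7085 CPM, others 15120 to 19446) the lowest of the 4 P0 libraries. Their part was not tested.

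S100a6, S100a10, S100a11, S100a13 and S100a16 had their highest group mean at P14. From P0 to P7, 6 genes rose (12.5% of all genes) and 1 fell (7.54%), which was S100a4 (3.19-fold lower, -1.67 ± 0.28, adjusted p = 6.1e-05). From P7 to P14, 7 rose (10.4%) and none fell (8.33%), and S100a4 came back 2.60-fold (1.38 ± 0.27, adjusted p = 0.00036). From P14 to P21, 5 fell (11.7%) and none rose (11.4%). S100a11 went from 50.4 to 87.5 CPM at P14 to 25.3 to 29.3 CPM at P21 (2.67-fold lower, -1.42 ± 0.23, adjusted p = 3.3e-05), and S100a16 fell 2.18-fold (-1.12 ± 0.16, adjusted p = 4e-06), with S100a13 (-0.90, adjusted p = 3.8e-05), S100a10 (-0.80, adjusted p = 0.00054) and S100a6 (-0.95, adjusted p = 0.0022). S100a6 missed the threshold without P21 replicate 2 or 3 (-0.89 and -0.90, adjusted p = 0.011 and 0.01), and S100a1 (-0.46, adjusted p = 0.016) passed it without P21 replicate 1 (-0.57, adjusted p = 0.0066) and with DESeq2 (-0.46, adjusted p = 0.0077). Schwann cell markers were 15556 to 16871 CPM in the pulldown at P7, 7841 to 12218 CPM at P14 and 1059 to 2077 CPM at P63, and their part in these changes was not tested.

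From P21 to P63, 3 genes rose (3.8% of all genes) and 1 fell (5.42%). S100a1 rose (0.87, adjusted p = 0.00017). S100b (0.89, adjusted p = 0.004) lost its call without P21 replicate 2, 3 or 4 or P63 replicate 4 (0.83 to 0.87, adjusted p = 0.013 to 0.019), S100a13 (0.59, adjusted p = 0.0067) without P21 replicate 2, 3 or 4 or P63 replicate 1, 2, 3 or 4 (0.53 to 0.60, adjusted p = 0.012 to 0.03), and the fall of S100a4 (-1.03, adjusted p = 0.003) without P21 replicate 4 or P63 replicate 1 (-0.97 and -0.98, adjusted p = 0.014 and 0.01). S100a8 and S100a9 stayed low in the pulldown of uninjured mGfap mice at all ages. S100a8 held 2 to 244 counts at P0, where the high value was a single library, replicate 4, and no fold is given for it. All P0 mice were labelled male.

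Between males and females at 5 d and 14 d after SCI, with the time as a covariate, none of the 10 genes passed the threshold of edgeR's test, where 0.051% of all 17639 genes did. Differences were -0.04 to 0.19 on the log2 scale, all with an adjusted p of 1. The widest were those of S100a9 (0.19 ± 0.33), S100a11 (0.17 ± 0.11) and S100a4 (0.16 ± 0.17), and none of the alternatives, DESeq2 included, called a member. At an unadjusted p under 0.05 there were 0. S100a4 read 144.6, 123, 304.01 and 134 CPM in the males at 5 d, and the third of these was above every female library of that day. These SEs do not show that the sexes were equal.

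Related genes outside the list moved in the same pulldown. Of 6 other S100 genes, 4 were tested in the time course, and 2 rose at 2 d and none fell, where 30.2% of all genes rose and 29.9% fell. S100a7a rose from 0.249 to 1.29 CPM (2.37 ± 0.54, adjusted p = 0.00035) and S100a3 from 0.266 to 0.827 CPM (1.66 ± 0.31, adjusted p = 2.9e-05). At 70 d S100g (3.96 ± 0.97, adjusted p = 0.001), with at most 4 counts in an uninjured library, and S100a3 (3.37 ± 0.33) were higher.

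Of 5 receptors that S100 proteins bind, 2 were higher and 2 lower at 2 d (30.2% and 29.9% of all genes), and 3 were higher and 1 lower at 70 d (23.9% and 21.5%). At 2 d the largest changes were those of the scavenger receptor gene Cd36, from 1.096 to 44.4 CPM (5.35 ± 0.46), and the toll-like receptor gene Tlr4, from 1.54 to 20.6 CPM (3.76 ± 0.20). Ager, which encodes the receptor for advanced glycation end products that binds several S100 proteins, read 1.17 ± 0.266 CPM in uninjured astrocytes and 0.372 ± 0.130 CPM at 2 d (-1.63 ± 0.19, adjusted p = 1.3e-08). At 70 d it stood at 30.1 ± 3.13 CPM (4.72 ± 0.19, adjusted p = 2.1e-17), and Cd36 at 19.1 ± 8.93 CPM (4.15 ± 0.45, adjusted p = 3.4e-08).

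Of 8 genes of intracellular binding partners, 7 rose and 1 fell at 2 d (30.2% and 29.9% of all genes), and 5 rose and 1 fell at 70 d (23.9% and 21.5%). Anxa2, the annexin that S100a10 binds, went from 69.9 ± 21.4 to 826 ± 68.9 CPM at 2 d (3.58 ± 0.16, adjusted p = 1.2e-17) and stood at 356 ± 59.3 CPM at 70 d (2.38 ± 0.15). Anxa1, the partner of S100a11, rose by a log2 value of 2.82 ± 0.26 at 2 d and 2.34 at 70 d. Unlike S100a10, Anxa2 did not change more in the pulldown than in the flow-through at 2 d past the threshold (difference 0.11 ± 0.20, adjusted p = 0.68).

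Across the 29 astrocyte libraries of the time course, which share time groups and therefore their largest changes, several members followed each other. Pearson's r of log2 CPM was 0.96 for S100a4 and S100a6, 0.95 for S100a1 and S100b, 0.94 for S100a8 and S100a9 and -0.61 for S100a11 and S100b. It was 0.89 for S100a13 and S100a16, 0.87 for S100a10 and S100a11 and 0.84 for S100a4 and S100a11. Outside the list, the genes of most similar pattern were Gpx1, Gch1 and Vim for S100a4 (r = 0.98, 0.95 and 0.94), Dtd1, Rida and D730003I15Rik for S100a1 (0.98, 0.97 and 0.97), Flot1, Gmds and Anxa7 for S100a10 (0.98, 0.97 and 0.97) and Pglyrp1, Wfdc21 and Retnlg for S100a9 (0.92, 0.91 and 0.90). By rank (Spearman's rho) the values for the same genes, in the same order, were 0.79, 0.49 and 0.50 for S100a4 and 0.98, 0.97 and 0.97 for S100a1. They were 0.85, 0.90 and 0.77 for S100a10 and 0.93, 0.83 and 0.88 for S100a9. These correlations are descriptions over 29 libraries and carry no test. Between members none was computed by rank.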

How the data were processed

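RNA-seq counts came from 117 libraries of mouse spinal cord. Per the methods, the authors used Trimmomatic for trimming, HISAT2 for alignment to mm10 and featureCounts, at default settings, for counting, and deposited whole-number counts per gene for each library, without normalization. The tables hold 27179 Entrez identifiers, in another order in 18 of them, and were joined by identifier. Of these, 25275 had a RefSeq name (GRCm38.p6) and 25069 an exon-union length. Levels are CPM after TMM scaling over all libraries and FPKM from these lengths.

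Tests used edgeR 4.0.16 in R 4.3.3 (quasi-likelihood F test, glmQLFit with robust estimation, TMM, filterByExpr), with Benjamini-Hochberg adjustment over all genes tested and a threshold of 0.01. The scripts were tested on simulated data. Replicates are separate mice. Each time course was 1 fit, as were the lines, the ages, the sexes with time as a covariate, and the differences between injury changes in the pulldown and the flow-through. Each comparison of pulldown with flow-through was a fit of its own.

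The 2 libraries of 1 mouse deviated together (median correlation of deviations 0.379 over 47 pairs, 40 of them over 0.1), so fits with the mouse as a block are given where they change a call. Alternatives were RLE scaling, no filter, DESeq2 1.42.0, fits of 2 groups alone, replicate blocks, sex covariates and leaving out each library.

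All 10 listed genes are named. Of related S100 genes, receptors and binding partners, the 2 with the largest change past the threshold are named for each day described. Ager at 2 d and Anxa2 in the comparison with flow-through were added after their values were seen. The members and lists were chosen with earlier results of these data known. Log2 CPM for correlations used a prior count of 2. Protein sequences were not used here.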

Additional observations from a re-analysis of the deposited data

Results flagged for a closer look

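In 25 of 260 combinations of a gene and a group of libraries, 1 library stood apart from the rest of its group by Dixon's criterion, which chance gives in about 1 of 20. The largest cluster was in the mGfap mice at 14 d after SCI. Replicate 1 was highest in the pulldown for S100a8 (7.09 CPM, next library 1.30), S100a9 (11.8 CPM, next 1.74) and S100a13 (437 CPM, next 208), and in the flow-through for S100a8 (192.9 CPM, next 46.0) and S100a9 (365 CPM, next 73.2). Replicate 2 was lowest in the flow-through for S100a1 (188 CPM, next 338).

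Among the other mGfap libraries, P0 replicate 3 was highest for S100a4 (114 CPM, next 42.8) and P0 replicate 4 for S100a8 (1.86 CPM, next 0.0239). P21 replicate 1 was highest for S100a1 (416 CPM, next 326), S100a13 (119 CPM, next 94.7) and S100a16 (294 CPM, next 247), and P35 replicate 1 for S100a8 (2.02 CPM, next 0.520).

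In males at 5 d after SCI, replicate 3 was highest for S100a4 in the pulldown (304.01 CPM, next 144.6) and, in the flow-through of the same mouse, for S100a4 (159 CPM, next 70.9), S100a6 (1589.7 CPM, next 812) and S100a13 (258.2 CPM, next 166), and replicate 1 was highest for S100b in the pulldown (1125 CPM, next 966). In males at 14 d, replicate 4 was highest for S100a9 in the pulldown (135 CPM, next 42.5) and for S100a8 (14.2 CPM, next 6.40), S100a9 (20.03 CPM, next 6.85) and S100b (985 CPM, next 874) in the flow-through. In females, S100b was highest in the 5 d flow-through of replicate 3 (918 CPM, next 822), and at 28 d in the pulldown S100a11 was lowest in replicate 4 (183.1 CPM, next 193.06) and S100a13 and S100b in replicate 1 (179.6 CPM, next 219, and 1856 CPM, next 2539).

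The change after SCI differed between pulldown and flow-through in 16 tests. On the log2 scale the differences at 2 d were -2.15 for S100a1, -2.29 for S100a4, -1.69 for S100a6, 1.44 for S100a10, -1.59 for S100a13 and -1.47 for S100b. At 5 d they were -2.79 for S100a1, -1.85 for S100a13, -1.22 for S100a16 and -1.18 for S100b. S100a1 also differed at 14, 28, 42 and 70 d (-1.92, -1.77, -1.32 and -0.94), and S100a13 at 14 d and 28 d (-1.29 and -1.40). No cause of these patterns was tested.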

How the results depend on the processing

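No member changed direction past the threshold in any alternative run. Calls over the members were 41 of 60 in the astrocyte time course (41 to 42 with each library left out in turn), 12 of 50 between successive times (11 to 14), 42 of 60 in the flow-through (39 to 44), 69 of 90 for pulldown against flow-through (66 to 70), 16 of 60 for the difference of injury changes (15 to 18), 13 of 40 between lines (12 to 17), 29 of 50 between ages (26 to 32) and 0 of 10 between sexes (0 throughout). DESeq2 gave 42, 14, 41, 73, 17, 15, 30 and 0, and no filter on low counts gave 62 of 90 for pulldown against flow-through.

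Of 222 calls, 196 stood in every alternative run, and of 198 values that were not called, 31 were called in at least one. Replicate numbers pair the libraries of 1 mouse, and with that block the calls were 74 of 90 for pulldown against flow-through and 19 of 60 for the difference of injury changes. Between mice the numbers were not taken to pair. Deviations of same-numbered mice had a median correlation of 0.00830 in the astrocyte time course and -0.0687 in the flow-through. It was 0.0988 between lines, -0.0103 between ages and 0.166 between sexes. Between sexes 14 of 24 such pairs were over 0.1, and between lines 12 of 25. The replicate block then gave 41, 10 and 43 calls in the astrocyte course, its steps and the flow-through, 17 between lines, 29 between ages and 0 between sexes. With the sex label as a covariate there were 10 calls between lines in place of 13. S100a8 and S100a9 rest on few counts in the mGfap pulldown, 10 to 134 for S100a8 at P63, which limits their fold changes.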
